A study of Mus musculus with 15 samples.

Results

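The genes described here are 33 markers of liver cells other than hepatocytes, followed through 5 groups of cultured primary mouse hepatocytes. They comprise 12 macrophage, 9 endothelial, 7 stellate cell and 5 cholangiocyte markers, taken from a named list and not picked by their values. Their messages were read on 15 Affymetrix whole-genome mouse expression arrays, on which 18193 genes had a probe set with a single gene symbol. Of the 33 markers, 32 had such a probe set and stood among those genes. Spp1 was the exception and was not analysed here. A gene with more than 1 probe set was represented by that of the highest average signal across the 15 arrays.

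The hepatocytes came from C57BL/6 mice and were kept in HepatoZYME-SFM medium. Each group has 3 arrays, and the study states that it ran 3 independent experiments. For 48 hours the cells carried an adenovirus for EGFP, the control protein, for wild-type (WT) IRE1a, or for S724A IRE1a, which has an alanine in place of a serine. In a second arm they carried the adenovirus Ad-shCON with a control hairpin or Ad-shIRE1a#2 with a hairpin that targets IRE1a. These viruses were left on for 72 hours, and glucagon was then added for 4 hours. All 5 groups thus carried an adenovirus, no group went without one, and no hairpin group went without glucagon. IRE1a, the product of Ern1, is the sensor of the endoplasmic reticulum whose RNase splices the messenger RNA of XBP1. The labels do not say whether arrays came from separate mice, so p-values measure the spread between these samples.

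Liver holds several resident cell types beside the hepatocytes. Kupffer cells, its macrophages, and sinusoidal endothelial cells line the blood channels, stellate cells store vitamin A and make collagen when activated, and cholangiocytes line the bile ducts. A preparation of hepatocytes can carry some of each. In RNA from a whole culture, fewer cells of a type and less RNA per cell cannot be told apart. Several listed genes can also be transcribed by hepatocytes in culture, among them Cd68, Krt19, Sox9 and Acta2.

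The hepatocyte label was borne out by 16 tested hepatocyte markers, whose mean log2 signal lay between 10.80 and 11.52 on the 15 arrays. Albumin, Alb, lay between 14.15 and 14.56. Not all 16 were bright, and Ass1, the dimmest, lay between 4.59 and 5.22. With the IRE1a hairpin the Ern1 signal fell by 1.47 ± 0.19 (SE) on the log2 scale (limma adjusted p = 0.00293), and differed by -0.56 when its probe sets were averaged (limma adjusted p = 0.0258). It did not separate the overexpression groups from EGFP, with differences of 0.12 ± 0.19 for WT and 0.46 ± 0.19 for S724A (limma adjusted p = 0.775 and 0.159), so this probe set does not check those 2 labels. With the replicate number as a block the S724A difference passed (limma adjusted p = 0.0215). Fkbp11, a prolyl isomerase of the endoplasmic reticulum, was not among the planned checks of the labels and is given as a description only. It rose by 3.26 ± 0.11 with WT and 3.21 ± 0.11 with S724A (limma adjusted p = 7.17e-10 and 8.77e-10). With its probe sets averaged it rose by 1.17 and 1.10. Array medians lay between 5.69 and 5.83.

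The regions before the start sites of 3 markers named below are shown, so that motifs of factors tied to glucagon and to IRE1a can be looked for. The choice was limited to regions that were available and did not overlap the gene's own span. Those of Tek and Acta2, which passed the threshold below, overlapped it. None was available for Cdh5, which also passed, or for Krt19. Cd68 is the macrophage marker with the smallest p for WT IRE1a against EGFP, Reln a stellate marker that differed between the arms, and Col1a2 a collagen gene whose S724A and EGFP arrays did not overlap. Each line gives the 250 bases before the gene on its own strand, from RefSeq (GRCm38.p6): chr11:69666171-69666420 (minus strand), chr5:22344706-22344955 (minus strand) and chr6:4505368-4505617 (plus strand). Capitals mark TGACG, the CRE half-site bound by the glucagon-responsive factor CREB, ACGTG, a core bound by XBP1, and CCAAT, each searched on both strands.
Cd68: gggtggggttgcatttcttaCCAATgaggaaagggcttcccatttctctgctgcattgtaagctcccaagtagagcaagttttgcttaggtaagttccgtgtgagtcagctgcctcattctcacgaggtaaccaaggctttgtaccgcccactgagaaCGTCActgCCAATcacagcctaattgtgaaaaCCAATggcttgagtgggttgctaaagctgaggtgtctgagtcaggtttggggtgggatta
Reln: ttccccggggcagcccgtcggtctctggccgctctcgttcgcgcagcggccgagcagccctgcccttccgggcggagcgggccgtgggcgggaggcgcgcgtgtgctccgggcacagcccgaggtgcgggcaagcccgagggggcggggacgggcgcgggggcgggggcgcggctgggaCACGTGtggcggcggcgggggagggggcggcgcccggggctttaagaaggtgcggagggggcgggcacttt
Col1a2: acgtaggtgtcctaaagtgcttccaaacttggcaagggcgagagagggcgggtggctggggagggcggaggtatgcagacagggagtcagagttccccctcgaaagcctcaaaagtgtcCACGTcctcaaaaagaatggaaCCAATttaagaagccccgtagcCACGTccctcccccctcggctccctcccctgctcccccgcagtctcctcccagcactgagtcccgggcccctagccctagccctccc
TGACG occurred 1 time before Cd68 and 0 times before the other two. ACGTG occurred 2 times before Reln, as both strands of a single CACGTG, 2 times before Col1a2 and 0 times before Cd68. CCAAT occurred 3 times before Cd68 and 1 time before Col1a2. Of 32851 RefSeq regions of the same length, 17.8% hold TGACG, 16.6% ACGTG and 33.8% CCAAT, so each match is common and is a description of the letters alone.

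Most of these markers gave low signals in every group. Of the 32, 27 reached a log2 signal of 4 in at least 3 of the 15 arrays and were tested, and 5 did not. The untested 5 included the complement gene C1qb (between 3.26 and 4.05) and the leukocyte phosphatase Ptprc, which encodes CD45 (2.84 to 3.20). The others were the retinol acyltransferase Lrat of stellate cells (3.10 to 3.40), the collagen gene Col3a1 (2.77 to 3.42) and the bile duct keratin Krt7 (3.54 to 3.93). As a reference for dim signal, added after the values were seen, 78 probe sets of olfactory and vomeronasal receptor genes had a median of 3.75, with 5th and 95th percentiles of 2.55 and 5.82. Of these, 48.7% reached a signal of 4, so the filter by itself is no evidence of expression. The mean of 21 of the 32 markers lay within that range, under 5.82. Probe sets differ in how brightly they read the same amount of RNA, so a low signal is not shown to be an absent message.

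**Figure D1:**
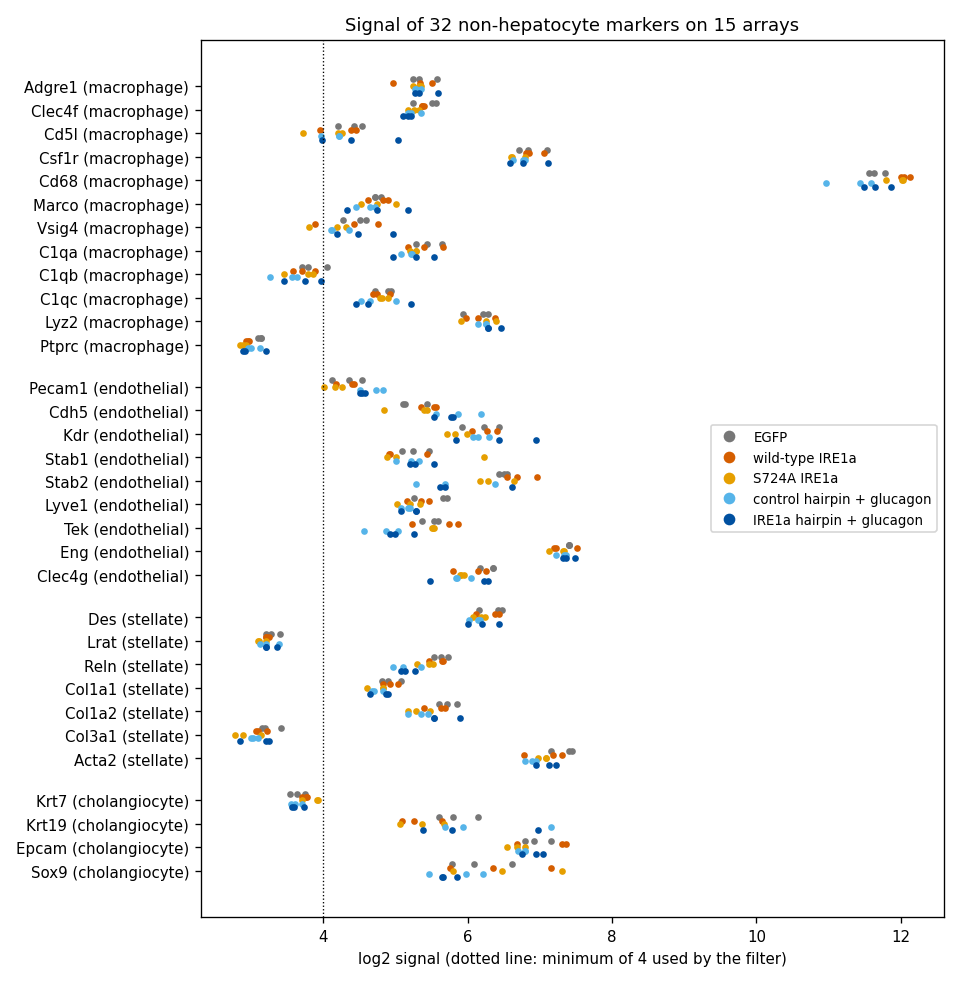
Log2 signal (x axis) of 32 non-hepatocyte markers (rows, by cell type) on each of 15 arrays, with points coloured by group and the groups of a marker drawn as separate lines of points. The dotted line is the minimum signal of 4, which 5 markers did not reach in 3 arrays, and Cd68 lies between 10.96 and 12.13 while the other macrophage markers reach at most 7.12.

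The plot of signals by marker shows how the macrophage list divides. Several of these markers were dim on all 15 arrays. The adhesion receptor Adgre1 lay between 4.97 and 5.59, the lectin Clec4f between 5.10 and 5.56, and the complement receptor Vsig4 between 3.80 and 4.97. The secreted scavenger protein Cd5l lay between 3.72 and 5.03 and the scavenger receptor Marco between 4.33 and 5.18. The C1q subunits C1qa and C1qc lay between 4.97 and 5.66 and between 4.45 and 5.22. Lyz2, a lysozyme of myeloid cells, lay between 5.91 and 6.46, and Csf1r, the receptor for the growth factor CSF-1, between 6.58 and 7.12. Cd68, a lysosomal membrane glycoprotein, read between 10.96 and 12.13. Of the 12 macrophage markers 3 had a mean above the 95th percentile of the chemoreceptor signals, namely Cd68, Csf1r and Lyz2.

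All 9 endothelial markers were tested, and the means of 4 lay above that percentile. Eng, the TGF-beta coreceptor endoglin, lay between 7.13 and 7.51 with a range of 0.38. Stab2, the hyaluronan scavenger receptor of sinusoidal cells, lay between 5.28 and 6.96. Kdr, the VEGF receptor, lay between 5.72 and 6.95, and Clec4g, a sinusoidal lectin, between 5.48 and 6.35. Pecam1, which encodes CD31, lay between 4.01 and 4.83, and Cdh5, VE-cadherin, between 4.84 and 6.18. The scavenger receptor Stab1 lay between 4.88 and 6.22, the hyaluronan receptor Lyve1 between 5.02 and 5.72, and Tek, the angiopoietin receptor, between 4.56 and 5.86.

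Stellate and cholangiocyte markers were likewise mixed. Acta2, smooth muscle actin, lay between 6.78 and 7.44 and Des, the intermediate filament desmin, between 6.00 and 6.47. Reln, the secreted protein reelin, lay between 4.97 and 5.73, Col1a1 between 4.61 and 5.07 and Col1a2 between 5.17 and 5.90. Among cholangiocyte genes, the adhesion protein Epcam lay between 6.54 and 7.36, the transcription factor Sox9 between 5.47 and 7.31, and Krt19, a simple-epithelium keratin, between 5.06 and 7.16. The last 2 had the widest ranges of the 32 markers, 1.84 and 2.11. Over the 27 tested markers the median range across arrays was 0.82, against 0.75 over all 16294 genes tested, and 10 of 27 (37.0%) had a range over 1, against 27.7% of all genes.

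WT IRE1a was compared with EGFP, which addresses whether a virus for IRE1a goes with a different content of other cells' messages. None of the 27 tested markers passed the threshold, an adjusted p under 0.05 in limma (0 of 27, against 7.67% of all genes tested). An unadjusted p under 0.05 was found for 1 of 27, against 21.4% of all genes. By cell type 0 of 10 macrophage, 0 of 9 endothelial, 0 of 5 stellate and 0 of 3 cholangiocyte markers passed. The median difference over the 27 was -0.04, and 11 lay higher and 16 lower, with a median of 0.00 over all genes. It was -0.06 for the 16 markers with a mean signal under 6 and 0.02 for the 11 others. The 95% confidence interval stayed within 1 on the log2 scale for 25 of the 27 markers and within 0.5 for 15. The 2 with wider bounds were Krt19 and Sox9.

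Cd68 (chr11:69664213-69666170) had the smallest p of the macrophage markers. Its log2 signals were 11.56, 11.63 and 11.79 with EGFP and 12.01, 12.05 and 12.13 with WT IRE1a. All 3 WT arrays lay above all 3 EGFP arrays, which was so, in either direction, for 2 of the 27 markers and 26.7% of all genes. The difference was 0.41 ± 0.15 (SE, n = 3 per group), with a 95% interval from 0.09 to 0.73 and a limma adjusted p of 0.114. Between arrays of the same number it was 0.46, 0.43 and 0.34. When the replicate number was fitted as a block, the difference passed at 0.41 ± 0.09 (limma adjusted p = 0.0124).

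Krt19 (chr11:100140810-100145926) was the other marker that passed only in the blocked fit. Its signals were 5.80, 6.15 and 5.60 with EGFP and 5.26, 5.65 and 5.09 with WT IRE1a, in the order of the array numbers. The groups overlapped, yet within each number WT lay lower, by -0.54, -0.50 and -0.50. The difference was -0.51 ± 0.39 without the block (limma adjusted p = 0.492) and -0.51 ± 0.09 with it (limma adjusted p = 0.00177). In that blocked fit 1 of 27 markers rose, 1 fell and 15.6% of all genes passed.

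Neither the endothelial nor the stellate list had a marker past the threshold in this comparison, blocked or not. Their smallest p belonged to Lyve1 at -0.21 ± 0.13 and to Acta2 at -0.24 ± 0.13 (limma adjusted p = 0.409 and 0.313). The sign for Lyve1 depended on the probe set. A second probe set differed by 0.41 ± 0.40, with its number-3 arrays at 5.16 for EGFP, 5.96 for WT and 5.38 for S724A and its other arrays of this arm at 4.46 or lower. Stab2 was the second marker whose groups did not overlap, at 0.24 ± 0.27 (limma adjusted p = 0.664).

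**Figure D2:**
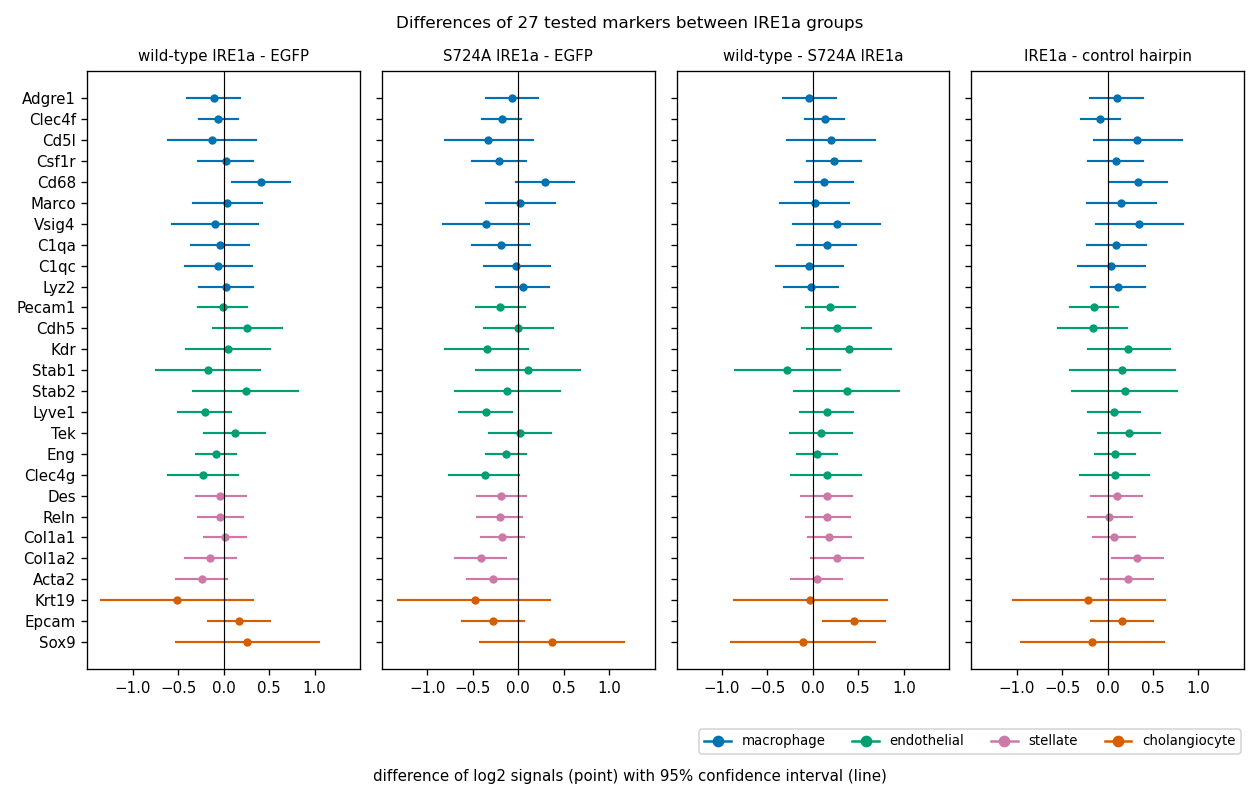
Difference of log2 signals (x axis, points) with its 95% confidence interval (lines) for the 27 tested markers in 4 comparisons (panels), coloured by cell type, n = 3 arrays per group. The intervals of Krt19 and Sox9 are the widest, and the differences lie between -0.51 and 0.45 over the 4 panels.

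S724A IRE1a was set against the same EGFP arrays, so the comparison is not independent of the last. Again none of the 27 tested markers passed in limma (0 of 27, against 6.12% of all genes). An unadjusted p under 0.05 was found for 2 of 27, against 24.0% of all genes. The median difference was -0.19 over the 27, with 6 higher and 21 lower, while over all genes it was -0.01. Among the dim genes, the 5325 with a mean signal under 6, the median was -0.14, and over the 78 chemoreceptor probe sets it was also -0.14. The median was -0.19 for the 16 dim markers and -0.19 for the 11 brighter ones, beside 0.07 over all 10969 brighter genes. Cd68 apart, with a mean of 11.74, those 11 had means from 6.04 for Clec4g to 7.33 for Eng. They are thus not matched in signal to all brighter genes, here and in the comparisons below. The part of dim signal in these medians was not tested. Groups did not overlap for 6 of 27 markers, against 33.4% of all genes.

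Col1a2 (chr6:4505618-4541543), the fibril-forming collagen subunit whose upstream region is printed above, had the smallest p. Its signals were 5.72, 5.85 and 5.60 with EGFP and 5.48, 5.28 and 5.17 with S724A IRE1a, and the groups did not overlap. The difference was -0.41 ± 0.13, with a limma adjusted p of 0.0775. It lay lower within each array number, by -0.24, -0.58 and -0.43, and passed with the replicate block at -0.41 ± 0.12 (limma adjusted p = 0.0443). A dimmer probe set of Col1a2 differed by -0.17 ± 0.12 (limma adjusted p = 0.433 in the fit of each probe set on its own).

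Krt19 was also lower with S724A IRE1a within each number, by -0.43, -0.48 and -0.54. Its signals there were 5.37, 5.67 and 5.06. The difference, named after its values were seen, was -0.48 ± 0.39 without the block (limma adjusted p = 0.472) and -0.48 ± 0.09 with it (limma adjusted p = 0.00362). The blocked fit thus called 0 of 27 markers higher and 2 lower, against 14.4% of all genes in either direction. WT and S724A values for Krt19 both rest on the same 3 EGFP arrays.

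Lyve1 had the smallest p of the endothelial list. Its signals were 5.25, 5.66 and 5.72 with EGFP and 5.02, 5.20 and 5.34 with S724A IRE1a, and the groups overlapped. The difference was -0.36 ± 0.13 (limma adjusted p = 0.126), which passed only without EGFP replicate 1 (-0.50, limma adjusted p = 0.0336). The second Lyve1 probe set had the other sign here, at 0.18 ± 0.40 (limma adjusted p = 0.823 in the fit of each probe set on its own). Cd68 was higher by 0.29 ± 0.15 (limma adjusted p = 0.246), with S724A arrays at 11.80, 12.03 and 12.02. These lay above all 3 EGFP arrays, the lowest of them narrowly. Among cholangiocyte genes Epcam had the smallest p at -0.28 ± 0.16 (limma adjusted p = 0.291).

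**Figure D3:**
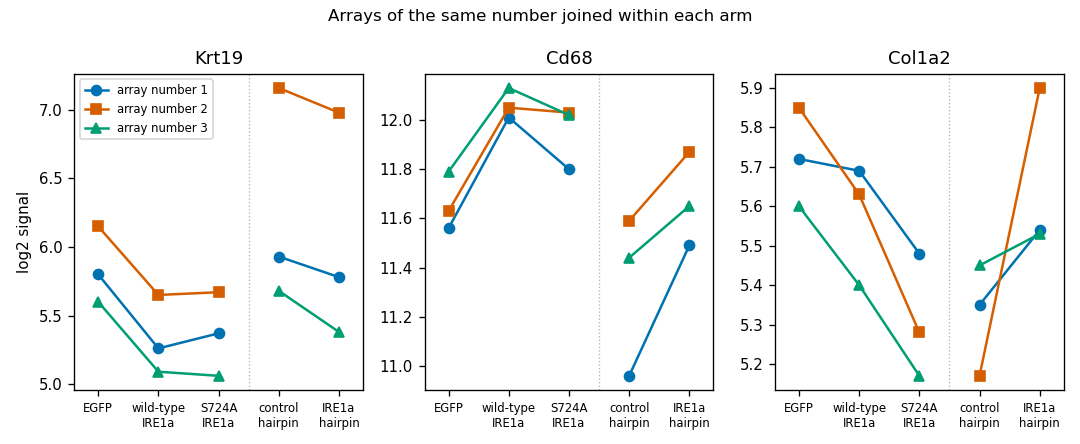
Log2 signal (y axis, scaled per panel) of Krt19, Cd68 and Col1a2 on each array, by group (x axis), with arrays of the same number joined by lines within each arm. For Krt19 the lines run nearly parallel, each WT array lying 0.50 to 0.54 below the EGFP array of its number.

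WT was compared directly with S724A IRE1a to ask whether the serine matters for these messages. No marker passed in limma (0 of 27, against 0% of all genes), and 1 had an unadjusted p under 0.05, against 6.12% of all genes. With the replicate block 0 of 27 passed as well, against 0.0123% of all genes. The median difference was 0.15, with 21 higher and 6 lower in WT, beside 0.03 over all genes, 0.09 over the dim genes and 0.10 over the chemoreceptor probe sets. It was 0.15 for the 16 dim markers and 0.15 for the 11 brighter ones, beside -0.00 over all brighter genes. All 27 intervals stayed within 1 on the log2 scale, and 15 stayed within 0.5. Epcam had the smallest p, at 0.45 ± 0.16 (95% interval from 0.11, limma adjusted p = 0.801), with WT arrays at 7.31, 7.36 and 6.69 and S724A arrays at 6.79, 6.68 and 6.54. The groups overlapped through the third WT array. A second, dimmer Epcam probe set, with a mean of 5.39, differed by 0.05 ± 0.22 (limma adjusted p = 0.983 in the fit of each probe set on its own). The smallest p of the other lists belonged to Kdr at 0.40 ± 0.21, Col1a2 at 0.26 ± 0.13 and Csf1r at 0.23 ± 0.14 (limma adjusted p = 0.851, 0.835 and 0.857).

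The IRE1a hairpin was compared with the control hairpin, both after glucagon, to ask what loss of IRE1a does. Again limma called 0 of 27 markers, against 0.233% of all genes. An unadjusted p under 0.05 was found for 2 of 27, against 7.73% of all genes. The replicate block also called 0 of 27, against 1.23% of all genes. The median difference was 0.10, with 22 markers higher and 5 lower, and over all genes it was 0.02. It was 0.07 over the dim genes and 0.08 over the chemoreceptor probe sets, of which 56 of 78 lay higher. The 16 dim markers had a median of 0.08 and the 11 brighter ones 0.12, beside -0.01 over all brighter genes. By list, 9 of 10 macrophage, 7 of 9 endothelial, 5 of 5 stellate and 1 of 3 cholangiocyte markers lay higher. Intervals stayed within 1 for 26 of 27 markers.

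Col1a2 and Cd68 had the unadjusted p under 0.05 in this comparison. The Col1a2 signals were 5.35, 5.17 and 5.45 with the control hairpin and 5.54, 5.90 and 5.53 with the IRE1a hairpin, without overlap. Its difference was 0.33 ± 0.13 (limma adjusted p = 0.582). The dimmer Col1a2 probe set differed by 0.07 ± 0.12 (limma adjusted p = 0.913 in the fit of each probe set on its own). For Cd68 they were 10.96, 11.59 and 11.44 with the control hairpin and 11.49, 11.87 and 11.65 with the IRE1a hairpin, higher within each number by 0.53, 0.28 and 0.22. The Cd68 groups overlapped, and the difference was 0.34 ± 0.15 (limma adjusted p = 0.614). Tek and Epcam had the smallest p of their lists, at 0.24 ± 0.16 and 0.16 ± 0.16 (limma adjusted p = 0.734 and 0.828).

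Arrays 2 and 3 of the IRE1a hairpin lay at opposite ends for these markers. Array 2 was the highest of its group for 17 of the 27, where 40.1% of all genes had their highest value on that array. Array 3 was the lowest of its group for 18 of the 27, and the share for all genes was not taken. The mean of the 10 tested macrophage markers was 6.19 on array 2. On the other 14 arrays it lay between 5.69, on array 3 of the same group, and 6.04. Cd5l read 5.03 on array 2 against 4.39 and 3.98 on the other arrays of its group, Kdr 6.95 against 6.44 and 5.84, and Marco 5.18 against 4.74 and 4.33. The 78 chemoreceptor probe sets had a mean of 4.14 on array 2 and 3.92 on array 3. Over all 15 arrays it lay between 3.89 and 4.18, with EGFP array 2 at the upper end. The part of this dim signal in the markers' levels was not tested. Without array 2 the median difference of the 27 markers was -0.00 in place of 0.10, and limma called 0 of 27 (0.0798% of all genes). Without array 3 the median was 0.20, and limma again called 0 of 27 (0.135% of all genes).

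**Figure D4:**
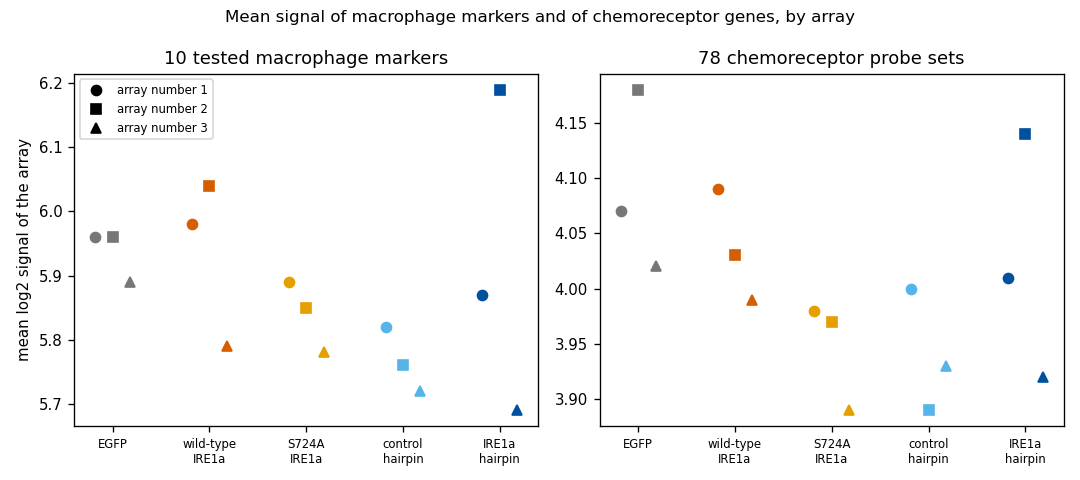
Mean log2 signal (y axes, scaled separately) of the 10 tested macrophage markers (left) and of 78 olfactory and vomeronasal receptor probe sets (right) on each array, by group (x axis), with marker shape for the array number. Array 2 of the IRE1a hairpin is highest on the left at 6.19 and second highest on the right at 4.14.

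For Krt19 and Sox9 the high values recurred on arrays of the same number. Krt19 was highest on array 2 of every group, at 6.15, 5.65, 5.67, 7.16 and 6.98 in the order EGFP, WT, S724A, control hairpin and IRE1a hairpin. Sox9 was highest on array 2 of 4 groups, at 6.61, 7.16, 7.31 and 6.21 in the same order, but not with the IRE1a hairpin, where the 3 arrays read 5.85, 5.66 and 5.65. Epcam, the third tested cholangiocyte marker, did not share this, with its highest value on array 2 for EGFP and WT and on array 1 for the other groups. The median within-group SD was 0.53 for the 3 tested cholangiocyte markers, against 0.17 for all genes. Stab1 was highest on array 3 with EGFP, WT and S724A, and its value of 6.22 on S724A array 3 stood against 5.01 and 4.88 on the other arrays of that group.

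The control hairpin with glucagon was last compared with EGFP, only to give the size of the difference between the arms. These groups differ in virus, hours of infection and glucagon at once, and the parts of the 3 cannot be told apart. Of the 27 tested markers 1 rose and 3 fell in limma, beside 16.1% of all genes past the threshold. Cdh5 of the endothelial list rose, while Tek of the same list and the stellate markers Reln and Acta2 fell. No macrophage marker passed (0 of 10, 1 with an unadjusted p under 0.05), nor did a cholangiocyte marker (0 of 3, 0 with an unadjusted p under 0.05). Over the 27 markers 9 had an unadjusted p under 0.05, against 32.3% of all genes. The median difference was -0.19, with 4 markers higher and 23 lower, beside -0.05 over all genes, -0.14 over the dim genes and -0.13 over the chemoreceptor probe sets. It was -0.19 for the 16 dim markers and -0.24 for the 11 brighter ones, beside 0.03 over all brighter genes. Groups did not overlap for 10 of 27 markers, against 36.2% of all genes.

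Tek (chr4:94739086-94874976) read 5.59, 5.53 and 5.37 with EGFP and 4.56, 4.87 and 5.04 with the control hairpin. Every control hairpin array lay below every EGFP array. It fell by 0.67 ± 0.16 on the log2 scale (limma adjusted p = 0.0116), a call lost without control hairpin replicate 1 (-0.54, limma adjusted p = 0.0625). In the other groups Tek read 5.61 ± 0.33 with WT, 5.52 ± 0.02 with S724A and 5.06 ± 0.17 with the IRE1a hairpin (SD, n = 3).

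Reln (chr5:21884454-22344705) read 5.73, 5.63 and 5.53 with EGFP and 4.97, 5.35 and 5.10 with the control hairpin, without overlap. It fell by 0.49 ± 0.11 (limma adjusted p = 0.0106), a call also lost without control hairpin replicate 1 (-0.40, limma adjusted p = 0.0579). A second, dimmer Reln probe set differed by -0.10 ± 0.11 (limma adjusted p = 0.555), so the probe sets do not give the same size. The IRE1a hairpin arrays read 5.08, 5.13 and 5.27, within the range of the control hairpin arrays.

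Acta2 (chr19:34240336-34255585) read 7.16, 7.40 and 7.44 with EGFP and 6.89, 6.80 and 6.95 with the control hairpin. It fell by 0.45 ± 0.13 (limma adjusted p = 0.0328) without overlap. Its call was lost without any 1 of control hairpin replicates 1 and 2 and EGFP replicates 2 and 3 (limma adjusted p between 0.0849 and 0.119). Averaged over its 3 probe sets, 2 of them too dim to be tested, it was -0.22 (limma adjusted p = 0.145).

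Cdh5 (chr8:104101613-104144504) went the other way. It read 5.44, 5.13 and 5.10 with EGFP and 5.56, 5.86 and 6.18 with the control hairpin, and rose by 0.64 ± 0.18 (limma adjusted p = 0.0241). The call was lost without any 1 of control hairpin replicates 2 and 3 and EGFP replicates 2 and 3 (limma adjusted p between 0.0595 and 0.0915), and when its probe sets were averaged (0.24, limma adjusted p = 0.144). The second Cdh5 probe set differed by -0.17 ± 0.13 (limma adjusted p = 0.377). Endothelial markers thus did not move one way here. Stab2, lower by -0.71 ± 0.27 with control hairpin arrays at 5.28, 6.38 and 5.69, and Pecam1, higher by 0.35 ± 0.12, did not pass (limma adjusted p = 0.0899 and 0.0695). Stab2 passed without control hairpin replicate 2 (limma adjusted p = 0.0236), and Pecam1 without EGFP replicate 2 or after quantile normalisation (limma adjusted p = 0.0470 and 0.0306).

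**Figure D5:**
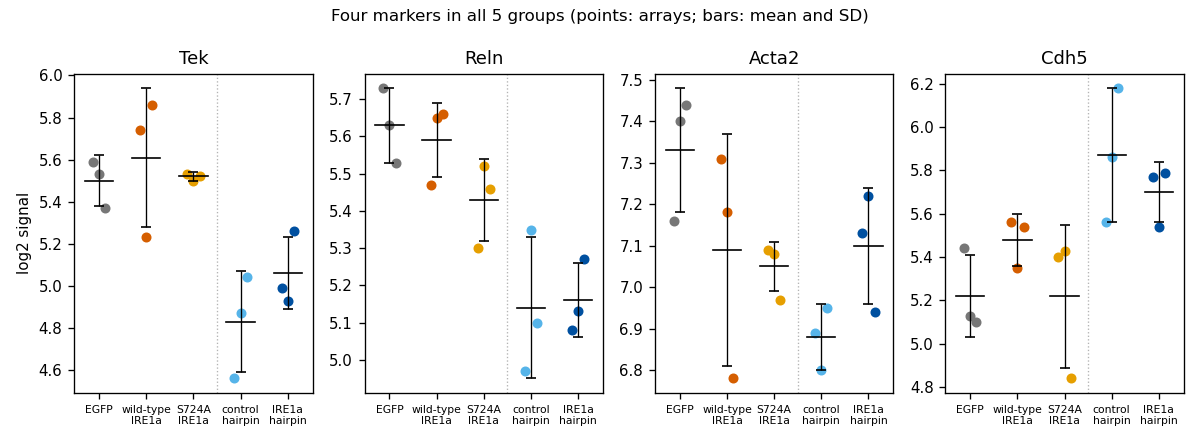
Log2 signal (y axis, scaled per panel) of Tek, Reln, Acta2 and Cdh5 in the 5 groups (x axis): points are arrays, and bars give the mean and SD of 3 arrays. In the first 3 panels the control hairpin arrays lie below the EGFP arrays, and in the Cdh5 panel they lie above them.

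With the replicate number as a random block over both arms, 6 of 27 markers passed in this comparison, against 19.5% of all genes. The additional markers were Col1a2 at -0.40 ± 0.13 and Lyve1 at -0.39 ± 0.13 (limma adjusted p = 0.0387 and 0.0459), which had limma adjusted p = 0.0522 and 0.0647 without the block. Leaving out 1 array also brought Col1a2 past the threshold without control hairpin replicate 3 and Lyve1 without EGFP replicate 1 (limma adjusted p = 0.0460 and 0.0144). In the unblocked fit of each probe set on its own, the dimmer Col1a2 probe set differed by -0.06 ± 0.12 (limma adjusted p = 0.747). The second Lyve1 probe set differed by -0.27 ± 0.40 (limma adjusted p = 0.679). Cd68, with the smallest p of the macrophage list, was lower by -0.33 ± 0.15 (limma adjusted p = 0.143). Epcam, the same for the cholangiocyte list, differed by -0.19 ± 0.16 (limma adjusted p = 0.413).

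Where a marker has several probe sets, as 17 of the 33 do, the others were read as well, an alternative chosen after seeing the data. A dimmer Des probe set was lower with the control hairpin than with EGFP by -0.69 ± 0.21 (limma adjusted p = 0.0451), beside -0.24 ± 0.13 for the one that stands for the gene. A further Csf1r probe set was lower by -0.46 ± 0.13 (limma adjusted p = 0.0319), beside -0.15 ± 0.14. These genes were named after their values were seen, and in both the probe sets agreed in direction but not in passing the threshold.

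A wider set of markers of the same cell types, none of them among the 33, was read beside them. Over all genes tested, limma called 7.67% for WT minus EGFP, 6.12% for S724A minus EGFP and 0% for WT minus S724A. It called 0.233% between the hairpins and 16.1% between the arms. An unadjusted p under 0.05 was reached by 21.4%, 24.0%, 6.12%, 7.73% and 32.3% in that order. Of 15 further macrophage genes tested, limma called 0 in each of the 5 comparisons, and between 0 and 2 had an unadjusted p under 0.05. Of 18 further endothelial genes 0 passed in the 4 comparisons within an arm, with 1 to 4 at an unadjusted p under 0.05. Between the arms 2 of 18 fell, against 16.1% of all genes called. These were the VEGF receptor Flt1, by 0.41 ± 0.13, and the transcription factor Erg, by 0.45 ± 0.15 (limma adjusted p = 0.0422 and 0.0478). Both calls were fragile. That of Erg was lost without any 1 of the 6 arrays and that of Flt1 without any 1 of 5, all but EGFP replicate 1 (limma adjusted p up to 0.197 and 0.183). With its probe sets averaged, Erg differed by -0.09.

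Of 22 further stellate cell and fibroblast genes, 1 fell with WT IRE1a and 2 with S724A, against 7.67% and 6.12% of all genes called. Vim, the intermediate filament vimentin, was 10.73, 10.84 and 11.18 with EGFP, 9.24, 9.71 and 9.10 with WT and 9.42, 9.82 and 9.25 with S724A. The EGFP arrays lay above all 6 others. It fell by 1.57 ± 0.33 with WT and by 1.42 ± 0.33 with S724A (limma adjusted p = 0.00900 and 0.0206). The call with S724A was lost without any 1 of S724A replicates 1 and 3 and EGFP replicates 2 and 3 (limma adjusted p up to 0.0796). Which cells of the culture carried the Vim message was not tested. The second with S724A was the collagen gene Col5a2, at -0.50 ± 0.08 (limma adjusted p = 0.00192). Between WT and S724A and between the hairpins limma called 0 of the 22, and 2 in each had an unadjusted p under 0.05.

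Of 10 further cholangiocyte genes, 1 rose with WT IRE1a, against 7.67% of all genes called. Slc10a2, the bile acid transporter ASBT, went from 5.85, 6.19 and 6.84 to 7.23, 7.53 and 8.21. The change was 1.36 ± 0.36 (limma adjusted p = 0.0300), a call lost without any 1 of WT replicates 2 and 3 and EGFP replicates 1 and 2 (limma adjusted p up to 0.133). In the other 3 comparisons within an arm limma called 0 of the 10, with 2 to 4 at an unadjusted p under 0.05. Between the arms 1 of the 10 rose and 2 fell, against 16.1% of all genes called. The tight junction gene Cldn4 rose by 2.97 ± 0.49, and Bicc1, an RNA-binding protein, fell by 0.83 ± 0.13 (limma adjusted p = 0.00141 and 0.00136). Cldn7, the other that passed, was at -0.49 ± 0.15 (limma adjusted p = 0.0465), lost without any 1 of 5 arrays, all but EGFP replicate 2 (limma adjusted p up to 0.188). In the same comparison 1 of the 22 stellate and fibroblast genes rose and 2 fell, Timp1 at 0.60 ± 0.14, Lhx2 at -1.92 ± 0.34 and Col5a2 at -0.26 ± 0.08 (limma adjusted p = 0.0104, 0.00238 and 0.0476). Timp1 lost its call without control hairpin replicate 1 or EGFP replicate 3 and Col5a2 without any 1 of the 6 arrays (limma adjusted p up to 0.0561 and 0.173), while Lhx2, Cldn4 and Bicc1 kept theirs in all alternatives run (limma adjusted p up to 0.0162, 0.0106 and 0.0104).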

How the data were processed

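Each deposited value is the log2 signal of 1 probe set on 1 array, made by the authors with GCRMA, per the submitters' processing notes, which give no version. The log2 scale was read from the values, between 1.91 and 14.80. After 64 control probe sets of 45101 were left out, 34945 with 1 gene symbol in GEO's platform annotation gave 18193 genes, of which 16294 reached 4 on at least 3 arrays. The 5 group means were fitted jointly on the 15 arrays in R 4.3.3 with limma 3.58.1 (lmFit, eBayes, 10 residual degrees of freedom), two-sided, with Benjamini-Hochberg adjustment over all genes tested within each of 5 comparisons and a threshold of 0.05. Differences are given ± SE, group values ± SD. The median half-width of a marker's 95% interval was 0.32.

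The members and lists were chosen with earlier results of these data known. All 33 markers were accounted for. Differences were named where they passed, and otherwise for the smallest p of each cell type in a comparison. Of further lists up to 3 genes past the threshold were named.

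The labels do not say that array numbers pair samples. Within arms, residuals of all 12 pairs of same-number arrays correlated (r from 0.20 to 0.69), and between arms 4 of 18 exceeded 0.1. The number was therefore also fitted as a replicate block within arms. In that fit 2 of 27 markers passed for WT and 2 of 27 for S724A against EGFP, beside 15.6% and 14.4% of all genes. The unblocked fit was tested on simulated data, the blocked fits were not. The simulated arrays were drawn independently, without the correlation seen here, so the simulation does not bear on the choice between the fits. Other alternatives were scaling, filters, a floor, 6 arrays alone, trended variances, the mean of probe sets and leaving out each array.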

Additional observations from a re-analysis of the deposited data

How the results depend on the processing

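With the replicate block 2 of 27 passed for WT minus EGFP and 2 for S724A minus EGFP (15.6% and 14.4% of all genes). Without it 0 passed, and it ended no marker's call. Between the arms 4 passed (16.1% of all genes), and the block gave 6 (19.5%) and quantile normalisation 5 (15.8%). A filter of 6 in place of 4 left 12 markers to test there, of which 1 passed, against 22.5% of all genes. Cdh5, Reln and Tek were no longer tested. Leaving out single arrays gave 0 to 1 for S724A minus EGFP, against 2.98% to 6.01% of all genes. It gave 1 to 5 between the arms, against 8.16% to 16.9%. In the other 3 comparisons it gave 0, against 4.39% to 6.80% for WT minus EGFP, 0% for WT minus S724A and 0.0798% to 0.460% between the hairpins. With the mean of its probe sets Lyve1 reversed in WT minus EGFP, to 0.10 (limma adjusted p = 0.862), while between the arms 4 markers passed, with Des and Epcam in place of Acta2 and Cdh5. Counts of all genes moved too: the replicate block gave 2539 in place of 1250, 2347 in place of 997 and 200 in place of 38 for WT, S724A and the IRE1a hairpin. The Ern1 difference of WT from EGFP reversed to -0.11 with the mean of probe sets and ranged from -0.02 to 0.34 when single arrays were left out. Over the alternatives, 680 values of named genes kept direction and side of the threshold, 66 lost and 15 gained the call and 3 reversed. The causes were not tested. Signal near background and 3 arrays per group limit what could be detected.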

Other observations

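Messages of blood cells were read in the same way. Of 8 tested lymphocyte genes, 8 neutrophil genes and 4 erythroid genes, limma called 0 in each of the 5 comparisons, with at most 3 of a list at an unadjusted p under 0.05. Their means per array lay between 5.30 and 5.71, 4.71 and 5.13, and 4.78 and 5.30 on the log2 scale. Of 16 tested hepatocyte genes 1 rose with WT IRE1a, the transcription factor Hnf4a by 0.74 ± 0.19 (limma adjusted p = 0.0237), a call lost without any 1 of WT replicates 2 and 3 and EGFP replicate 2 (limma adjusted p up to 0.126). Limma called 0 of the 16 in the other 3 comparisons within an arm, with 1 to 3 at an unadjusted p under 0.05. Between the arms 1 rose and 5 fell, among them Tdo2, a tryptophan-degrading enzyme, by 1.21 ± 0.17 (limma adjusted p = 0.000577). Of all genes tested, limma called 7.67% with WT IRE1a and 16.1% between the arms.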
